A study of Homo sapiens with 8 samples.

Results

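The 76 genes described here come from families that include many splicing regulators. These are SR proteins, heterogeneous nuclear ribonucleoproteins (hnRNPs), the kinases that phosphorylate SR proteins, LUC7-like proteins and proteins named RBM for their RNA-binding motif. The RBM name marks that motif and not a role in splicing, and several RBM proteins below act in other steps of RNA handling. They were chosen by name and by a minimum count, as protein-coding genes named SRSF, HNRNP, CLK, SRPK, TRA2, LUC7L or RBM that had at least 100 counts in at least 1 library, with readthrough genes left out. Of 86 genes with such names, 76 met the minimum, of 46427 genes in the table. The 10 left out include SRPK3, RBM20 and SRSF12, with at most 12, 12 and 0 counts in any library. The 76 are 13 SR proteins (SRSF1 to SRSF11, TRA2A and TRA2B), 21 hnRNPs, 6 kinases (CLK1 to CLK4, SRPK1 and SRPK2), 3 LUC7-like genes and 33 RBM genes. All 76 passed the filter on low counts and were tested.

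The cells were RPE-1, a human retinal pigment epithelial line immortalised with telomerase (hTERT). They received all-trans-retinal (atRAL, 25 µM), atRAL together with extracellular vesicles (EV, 2000000000 particles per ml) from tonsil-derived mesenchymal stem cells, EV alone, or neither (the control), each for 1 h or 6 h. Poly(A) RNA of each of the 8 conditions was sequenced once, so every condition is 1 library of 1 immortalised line. The labels name no separate cultures, so a p-value here speaks of the spread among 8 libraries and no further, and at the level of whole cultures a loss of cells and a loss of RNA per cell cannot be told apart. atRAL is the aldehyde that light releases from visual pigment and that is toxic when it accumulates in the retina.

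SR proteins bind exonic sequences and recruit the spliceosome through domains rich in arginine and serine. SRPK kinases phosphorylate these domains in the cytoplasm, which lets SR proteins enter the nucleus, and CLK kinases phosphorylate them there, which releases them from nuclear speckles. Most hnRNPs coat nascent RNA and often oppose SR proteins at splice sites, and LUC7-like proteins belong to the U1 particle that recognises the 5′ splice site. Many of these genes also control their own mRNA through alternative exons or retained introns that lead to decay or to nuclear storage. The deposited values are sums per gene, so no isoform is separated here.

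Total counts ran from 45566237 to 71822269 per library, and the 76 genes held 0.981% to 1.11% of them. Of 11 marker genes of retinal pigment epithelium, TYR and TTR had 0 counts in all 8 libraries and RPE65 at most 9, whereas MITF had 1495 to 3232 and OTX2 766 to 2827. Their summed level at 6 h was 73.9 CPM (counts scaled to library size) with atRAL only and 72.2 with atRAL plus EV, against 94.6 with EV alone and 96.9 in the control. Most of that sum is MITF and OTX2, and not all markers ran that way: BEST1 had 4.33 and 1.89 CPM with atRAL alone and atRAL plus EV, against 0.672 and 0.802 with EV alone and in the control, and of the 7 markers tested edgeR called 2 higher and 1 lower with atRAL at 6 h. The 7 mesenchymal markers, of which NT5E and THY1 are abundant in all 8 libraries, summed to 1050 and 1170 CPM with atRAL alone and atRAL plus EV, against 1390 and 1360 with EV alone and in the control. Most of that mesenchymal sum is NT5E and THY1. PDGFRB ran otherwise, with 109 and 55.2 CPM with atRAL alone and atRAL plus EV, against 60.2 and 105 with EV alone and in the control. Of the 6 mesenchymal markers tested at 6 h, edgeR called 2 lower with atRAL and 1 lower with EV. Of 8 lymphoid and blood markers, 6 had under 10 counts everywhere and the sum was at most 0.711 CPM. Squamous markers summed to 2.15 and 2.89 CPM with atRAL alone and atRAL plus EV, against 0.91 and 0.367 with EV alone and in the control, almost all of it KRT13. The part of these markers in the results below was not tested.

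Levels per transcript length (FPKM, fragments per kilobase relative to depth, as deposited) put the hnRNPs highest, with a median of 65.4 over the 21 genes, each averaged over 8 libraries. The median was 41 FPKM for SR proteins, 25.5 for LUC7-like genes, 12.95 for the kinases and 8.58 for RBM genes. HNRNPA1, which binds exonic and intronic silencers, was the most abundant at 200 FPKM, ahead of the poly(C)-binding HNRNPK at 182 and HNRNPA2B1 at 177. In each of the other families the highest genes were SRSF2 (SC35, the speckle protein) at 99.6, RBM4 at 53.3, LUC7L3 at 26.5 and CLK1 at 22.9 FPKM. RBM47 was lowest at 0.228 FPKM.

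**Figure D1:**
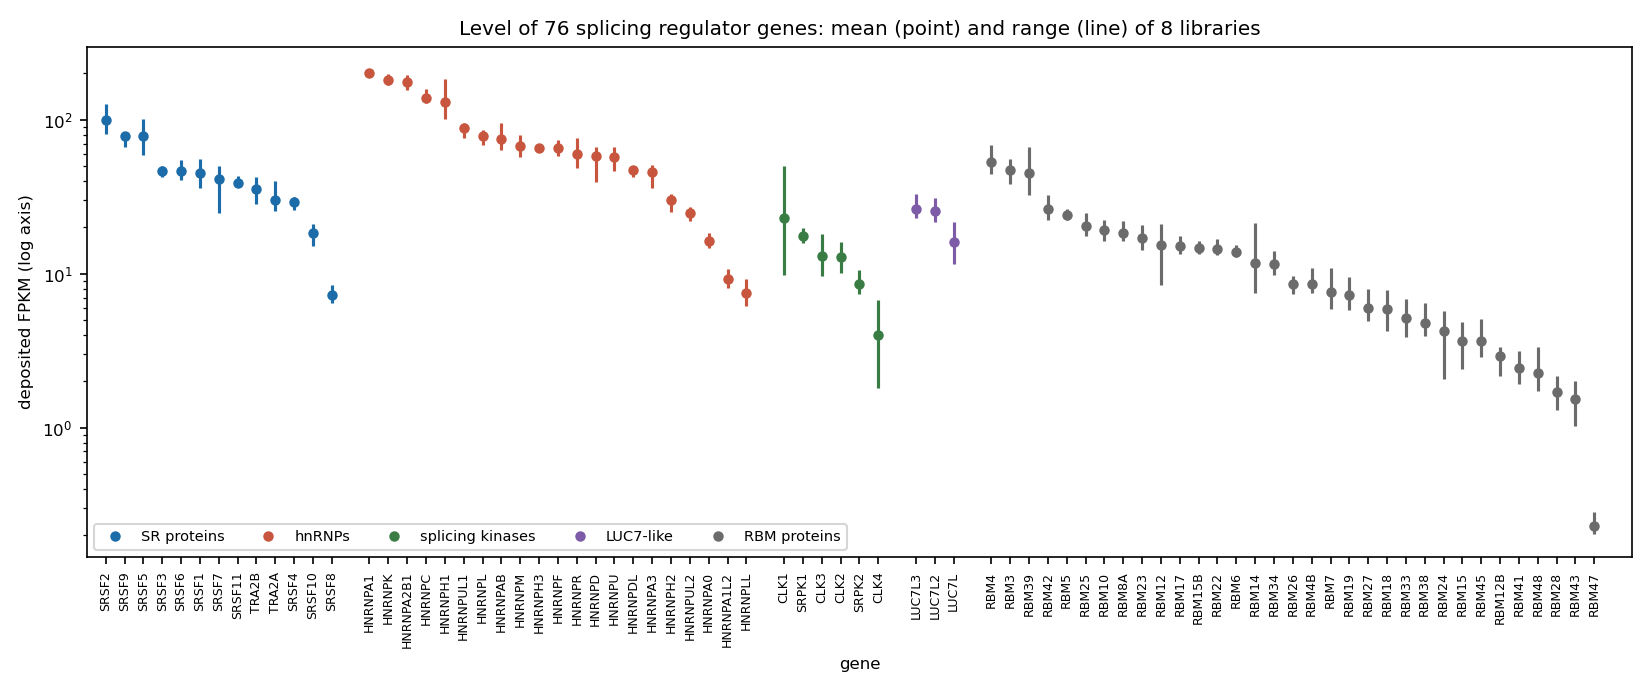
Deposited FPKM of the 76 genes on a log axis, by family; each point is the mean of 8 libraries and each line runs from the lowest to the highest library. The long lines belong to CLK1, CLK4, RBM12, RBM14 and RBM24, whereas HNRNPA1 and HNRNPK hardly vary.

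Most of these genes kept a narrow range over the 8 libraries. The highest CPM was 1.36 times the lowest at the median of the 76 genes, against 1.5 times at the median of the 13047 tested genes with 100 counts in a library. The ratio was under 1.5 for 63.2% of the 76 genes, against 49.7% of all those genes, and over 2 for 9.2%, against 21%. Sampling alone widens this ratio in genes with few counts, and the sets were not matched for level. HNRNPA1 was the steadiest, with a ratio of 1.09, and no hnRNP passed 2. The 7 genes over 2 were CLK1 (4.36), CLK4 (3.76), RBM14 (2.67), RBM24 (2.65), RBM12 (2.5), SRSF7 (2.23) and RBM15 (2.09). HNRNPA1 has 71 pseudogenes in the table, which held 31409 counts, 7.64% as many as HNRNPA1 itself, so its level is less certain than that of a gene with no copy.

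The first comparison asked what atRAL did at 6 h, with the 2 atRAL libraries set against the 2 libraries without it. The kinase CLK1 and RBM48, RBM15, RBM33 and RBM7 were 1.5-fold or more higher with atRAL than without it. RBM14, RBM24, RBM12, RBM43 and SRSF7 stood at about 0.6 of the level without atRAL or less. Rose and fell, for atRAL at 6 h here and below, mean higher and lower than without atRAL at 6 h. They do not mean a change since 1 h. RBM14 with atRAL, for one, had 61.6 and 64 CPM at 6 h, against 48.5 and 52.7 at 1 h. Of the 76 genes, 30 changed by edgeR's quasi-likelihood test at an adjusted p under 0.05, or 39.5%, against 30.2% of all 17044 genes tested. Of these, 11 rose (14.5%, against 15.9% of all genes) and 19 fell (25%, against 14.2%). At an unadjusted p under 0.05 there were 42 (55.3%, against 41.7% of all genes). Shares of all genes, here and below, are not matched for count level. The 76 genes each had 100 counts in a library, whereas 13047 of the 17044 genes tested did. The shares called among those 13047 were not worked out. The median log2 fold change was -0.08 over the 76 genes and -0.01 over all genes. With upper quartile scaling 10 rose and 26 fell (31% of all genes called), and with library totals alone 10 rose and 23 fell (30.4%).

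**Figure D2:**
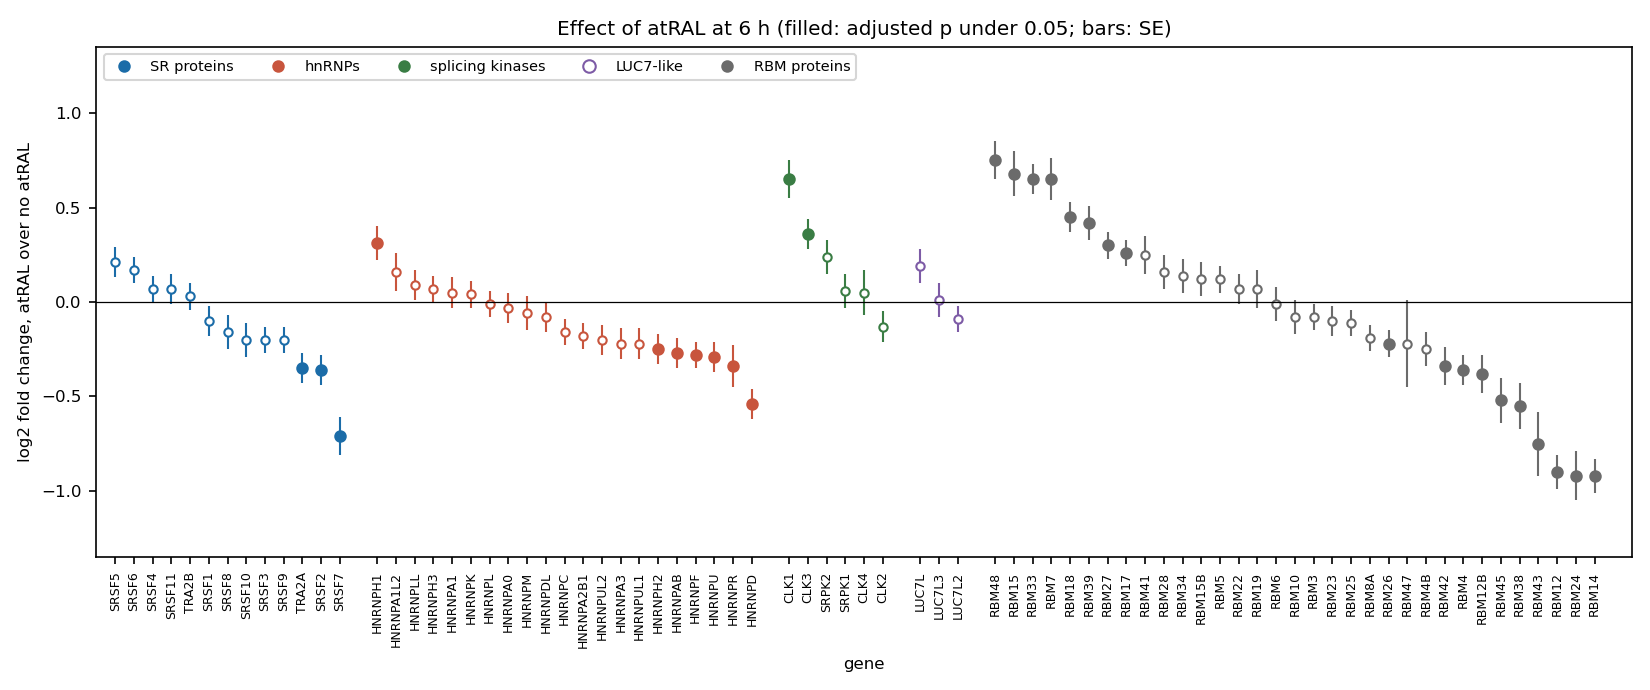
Log2 fold change of each of the 76 genes with atRAL over without atRAL at 6 h, by family, with bars of 1 SE; filled points passed edgeR's test at an adjusted p under 0.05. CLK1 and RBM48 stand at 0.65 and 0.75, and SRSF7, RBM12, RBM24 and RBM14 at -0.71 to -0.92.

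Among the kinases, 2 of 6 rose and none fell, against 15.9% and 14.2% of all genes. CLK1, which phosphorylates SR proteins in the nucleus, lies on chromosome 2 (200853009 to 200864744, minus strand, GRCh38). At 6 h it had 146 CPM with atRAL only and 107 with atRAL plus EV, against 76.7 with EV alone and 81.7 in the control. Both atRAL libraries were above both others, and the library with EV was the lower of the 2. The log2 fold change was 0.65 ± 0.10 (SE, edgeR adjusted p = 0.0022).

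CLK3 had 55.8 CPM with atRAL only and 48.1 with atRAL plus EV, against 39.3 with EV alone and 41.4 in the control (0.36 ± 0.08, edgeR adjusted p = 0.014). Its call was lost without the atRAL library or without the control library of 6 h (adjusted p up to 0.09). CLK4 stood at 19.2 CPM with atRAL only and 15.3 with atRAL plus EV, against 16 with EV alone and 17.2 in the control, so its groups overlapped (0.05 ± 0.12, edgeR adjusted p = 0.81). CLK2 (-0.13 ± 0.08), SRPK1 (0.06 ± 0.09) and SRPK2 (0.24 ± 0.09) were not called, with edgeR adjusted p of 0.25, 0.65 and 0.082. SRPK2 stood at 0.38 without the atRAL plus EV or without the EV library of 6 h. Both fits rest on atRAL over the control, 1 library each. The 6 kinases together held 0.0381% of counts with atRAL only and 0.0341% with atRAL plus EV, against 0.0293% with EV alone and 0.0309% in the control.

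Among the SR proteins, 3 of 13 fell and none rose (14.2% and 15.9% of all genes), with a median of -0.16. SRSF7 (9G8), which also takes part in mRNA export, lies on chromosome 2 (38743599 to 38751494, minus strand). It had 51.7 CPM with atRAL only and 78.8 with atRAL plus EV, against 115 with EV alone and 94.5 in the control. Both atRAL libraries were the lowest of the 4, with atRAL alone at a ratio of 0.547 to the control. The log2 fold change was -0.71 ± 0.10 (edgeR adjusted p = 0.0017).

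SRSF2 had 194 and 226 CPM with atRAL alone and atRAL plus EV, against 280 and 259 with EV alone and in the control (-0.36 ± 0.08, edgeR adjusted p = 0.011). The call was lost without the control library of 6 h (adjusted p = 0.052). Of its annotated exon bases, 36.7% overlap MFSD11 on the opposite strand, and whether the counting used strand is not given in the sources used here. MFSD11 had 22.1 and 20.1 CPM with atRAL alone and atRAL plus EV, against 14.9 and 18.6 with EV alone and in the control.

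TRA2A, an SR-like protein with arginine-serine domains at both ends, had 61.8 and 69.8 CPM with atRAL alone and atRAL plus EV, against 82.8 and 84.7 with EV alone and in the control (-0.35 ± 0.08, edgeR adjusted p = 0.014). Its paralog TRA2B was not called, at 149 and 154 CPM against 153 and 143 (0.03 ± 0.07, edgeR adjusted p = 0.77). TRA2A lost its call in 6 of the 8 fits that left out 1 library, all but those without the atRAL plus EV or the EV library of 6 h (adjusted p up to 0.1). The other 9 SR proteins lay between -0.20 (SRSF3, SRSF9 and SRSF10) and 0.21 (SRSF5) and did not pass the test. SRSF10 stood at -0.34 without the atRAL plus EV or without the EV library of 6 h, which both leave atRAL over the control, 1 library each. SRSF3 and SRSF9 were called with upper quartile scaling (-0.25 each) and with library totals alone (-0.23 each), and SRSF9 also on log2 of FPKM plus 1 (-0.24) and plus 0.1 (-0.25).

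Among the hnRNPs, 6 of 21 fell and 1 rose (14.2% and 15.9% of all genes), with a median of -0.16. HNRNPD (AUF1), which binds AU-rich elements and promotes mRNA decay, lies on chromosome 4 (82352498 to 82374503, minus strand). It had 128 CPM with atRAL only and 162 with atRAL plus EV, against 217 with EV alone and 202 in the control. The atRAL libraries were again the lowest (-0.54 ± 0.08, edgeR adjusted p = 0.0028). HNRNPR, HNRNPU, HNRNPF, HNRNPAB and HNRNPH2 fell by less, with log2 fold changes of -0.34 to -0.25.

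HNRNPH1, which binds runs of G, was the hnRNP that rose: 461 and 395 CPM with atRAL alone and atRAL plus EV, against 352 and 338 with EV alone and in the control (0.31 ± 0.09, edgeR adjusted p = 0.033). Its close relative HNRNPH2 went the other way (-0.25 ± 0.08, edgeR adjusted p = 0.044). HNRNPR, HNRNPU, HNRNPAB, HNRNPH2 and HNRNPH1 each lost the call in the same 6 of 8 fits as TRA2A (adjusted p up to 0.39, for HNRNPR), and HNRNPF in 6 of 8, all but those without the atRAL or the control library of 6 h (adjusted p up to 0.066). The most abundant genes HNRNPA1 (0.05 ± 0.08) and HNRNPK (0.04 ± 0.07) were not called (edgeR adjusted p = 0.68 and 0.72). HNRNPA3, not called at -0.22 ± 0.08, stood at -0.33 without the atRAL plus EV or without the EV library of 6 h. Both fits rest on atRAL over the control, 1 library each. The hnRNPs together held 0.56% of counts with atRAL only and 0.58% with atRAL plus EV, against 0.631% with EV alone and 0.619% in the control.

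The 3 LUC7-like genes did not pass the test. LUC7L stood at 0.19 ± 0.09, LUC7L2 at -0.09 ± 0.07 and LUC7L3 at 0.01 ± 0.09, with edgeR adjusted p of 0.15, 0.38 and 0.92. LUC7L was at 0.33 without the atRAL plus EV or without the EV library of 6 h. Both fits rest on atRAL over the control, 1 library each.

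Of the 33 RBM genes, 8 rose and 10 fell, against 15.9% and 14.2% of all genes. RBM48, a component of the minor spliceosome, lies on chromosome 7 (92528773 to 92538005, plus strand). It had 16.5 CPM with atRAL only and 16.5 with atRAL plus EV, against 9.95 with EV alone and 9.75 in the control. The atRAL pair was identical to this precision and clear of the other pair (0.75 ± 0.10, edgeR adjusted p = 0.0019). RBM15, a subunit of the complex that writes N6-methyladenosine, had 16.2 and 13 CPM with atRAL alone and atRAL plus EV, against 9.18 and 8.9 with EV alone and in the control (0.68 ± 0.12, edgeR adjusted p = 0.005).

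RBM7, which delivers nuclear RNA to the exosome, had 44.7 and 38.5 CPM with atRAL alone and atRAL plus EV, against 27.6 and 25.5 with EV alone and in the control (0.65 ± 0.11, edgeR adjusted p = 0.0052). RBM33 had 79.8 and 67 CPM with atRAL alone and atRAL plus EV, against 45.6 and 47.9 with EV alone and in the control (0.65 ± 0.08, edgeR adjusted p = 0.0013). For both genes the atRAL libraries were the 2 highest. RBM39, an SR-like partner of the U2 auxiliary factor, had 314 and 282 CPM with atRAL alone and atRAL plus EV, against 228 and 216 with EV alone and in the control (0.42 ± 0.09, edgeR adjusted p = 0.01). It lost the call without the atRAL or without the control library of 6 h (adjusted p up to 0.062).

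RBM18 also rose (0.45 ± 0.08, edgeR adjusted p = 0.0065), as did RBM27 (0.30 ± 0.07, edgeR adjusted p = 0.019), which takes part in nuclear RNA decay, and RBM17 (SPF45, a splicing factor; 0.26 ± 0.07, edgeR adjusted p = 0.035). RBM27 and RBM17 lost the call in the same 6 of 8 fits as TRA2A (adjusted p up to 0.091 and 0.21). Of the exon bases of RBM27, 45.4% are shared with another gene on the same strand.

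RBM14, a paraspeckle protein, lies on chromosome 11 (66616582 to 66627347, plus strand). At 6 h it had 61.6 CPM with atRAL only and 64 with atRAL plus EV, against 129 with EV alone and 110 in the control. The 2 atRAL libraries were close to each other and far below the other 2 (-0.92 ± 0.09, edgeR adjusted p = 0.00037). Of its exon bases, 11% are shared with the readthrough gene RBM14-RBM4, which had at most 1.62 CPM in these 4 libraries.

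RBM12 (chromosome 20, 35648925 to 35664956, minus strand) had 63.9 CPM with atRAL only and 96.2 with atRAL plus EV, against 160 with EV alone and 134 in the control (-0.90 ± 0.09, edgeR adjusted p = 0.00054). RBM24, a splicing regulator known from muscle (chromosome 6, 17281346 to 17293875, plus strand), had 6.13 and 7.48 CPM with atRAL alone and atRAL plus EV, against 11.9 and 13.8 with EV alone and in the control (-0.92 ± 0.13, edgeR adjusted p = 0.0023). In both genes atRAL alone was the lowest library. RBM12 and RBM24 were the genes past 2-fold between the single atRAL and control libraries of 6 h, with ratios of 0.479 and 0.445, or 2.63% of the 76 genes against 9.25% of the 12838 genes compared (3.68% of them lower). This is a ratio of 2 libraries with no replicate check.

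RBM43 (-0.75 ± 0.17, edgeR adjusted p = 0.013), RBM45 (-0.52 ± 0.12, edgeR adjusted p = 0.013) and RBM38, a p53 target that stabilises CDKN1A mRNA (-0.55 ± 0.12, edgeR adjusted p = 0.011), also fell. RBM38 had 10.9 and 11.7 CPM with atRAL alone and atRAL plus EV, against 17.7 and 15.3 with EV alone and in the control. The smaller calls were RBM12B (-0.38), RBM4 (-0.36), RBM42 (-0.34) and RBM26 (-0.22). The 8 fits that left out 1 library are not 8 separate checks of an estimate at 6 h. Without a library of 1 h, the estimate rests on the same libraries of 6 h as before. Without a library of 6 h, it rests on atRAL over the control or on atRAL plus EV over EV, 1 library each. RBM12B lost the call in the same 6 of 8 fits as TRA2A (adjusted p up to 0.25), RBM4 in the same 6 as HNRNPF (up to 0.087), RBM42 without any 1 library of 6 h (up to 0.082) and RBM26 without any 1 of the 8 libraries (up to 0.17). Of 30 calls, 14 held in each of the 8 fits that left out 1 library and in each of the 11 other alternatives: CLK1, SRSF7, HNRNPD, RBM7, RBM12, RBM14, RBM15, RBM18, RBM24, RBM33, RBM38, RBM43, RBM45 and RBM48.

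**Figure D3:**
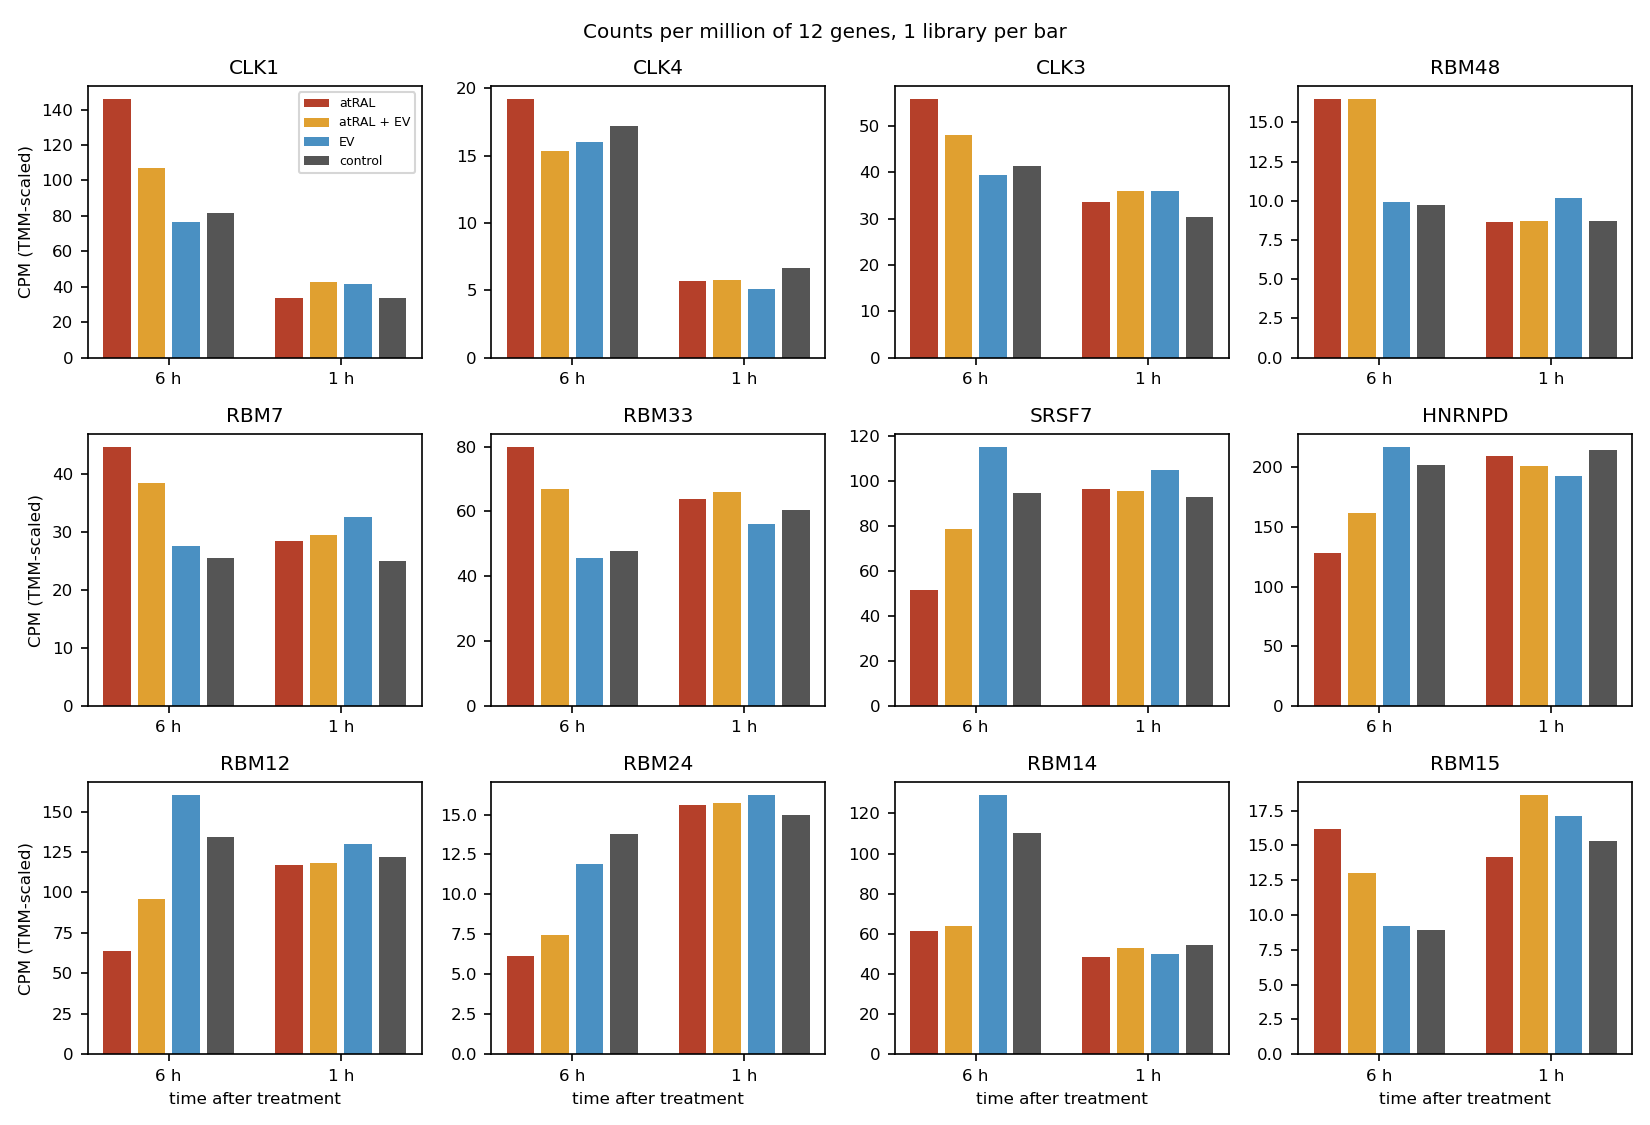
CPM of 12 of the genes, 1 library per bar, with 6 h left of 1 h and the bars in the order atRAL, atRAL plus EV, EV and control. CLK1 reached 146 CPM with atRAL alone at 6 h; the low atRAL bars of RBM12 and SRSF7 at 6 h have no counterpart at 1 h; RBM14 is high only in the 2 libraries of 6 h without atRAL among the 8.

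At 1 h none of the 76 genes was called for atRAL by edgeR (0.00587% of all genes were), 0 had an unadjusted p under 0.05 (1.9% of all genes), and DESeq2 and limma-voom also called 0. The log2 fold changes lay between -0.16 and 0.16. CLK1 at 1 h had 33.7 CPM with atRAL only and 42.7 with atRAL plus EV, against 41.5 with EV alone and 33.4 in the control, so the 2 libraries with EV were the higher ones. SRSF7 at 1 h had 96.4 and 95.6 CPM with atRAL alone and atRAL plus EV, against 105 and 93 with EV alone and in the control.

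The difference between the atRAL effects at 6 h and at 1 h was tested directly. It passed edgeR's test for 12 of the 76 genes, against 13.4% of all genes, with 7 positive (7.98% of all genes) and 5 negative (5.43%). The largest positive differences were RBM48 (0.86 ± 0.15, edgeR adjusted p = 0.011), RBM15 (0.67), CLK1 (0.63 ± 0.14, edgeR adjusted p = 0.025) and RBM7 (0.63). The negative ones were RBM24 (-0.92 ± 0.19, edgeR adjusted p = 0.019), RBM14 (-0.89 ± 0.13, edgeR adjusted p = 0.0052), RBM12 (-0.79), SRSF7 (-0.66) and HNRNPD (-0.54). Without any 1 of the 4 libraries of 1 h, 0 of the 76 genes were called for this difference (0.365% to 1.04% of all genes). Without the atRAL or without the control library of 6 h, 2 were positive and 6 negative (12.1% and 11.4% of all genes called), and RBM7, RBM15, RBM18, RBM33 and RBM39 were no longer called.

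The change with time was then set out with and without atRAL, 2 libraries of 6 h against 2 of 1 h each, with EV allowed for. Both CLK1 and CLK4 were higher at 6 h than at 1 h with atRAL and also without it, though edgeR did not call CLK1 without atRAL. With atRAL, 17 of the 76 genes changed by edgeR's test, against 20.2% of all genes, with 13 higher at 6 h (11.6% of all genes) and 4 lower (8.64%), and 34 had an unadjusted p under 0.05 (44.7%, against 35.1%). Without atRAL 2 changed, against 0.158% of all genes, both of them higher (0.0293% of all genes). Without atRAL 25 genes had an unadjusted p under 0.05 (32.9%, against 16% of all genes), and DESeq2 called 11 (2.99% of all genes) and limma-voom 2 (0.164%). Without any 1 of the 4 libraries with atRAL edgeR called 10 or 11 higher and 2 lower (4.17% to 5.43% of all genes), and without any 1 of the 4 libraries without atRAL it called 0 (0% of all genes).

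CLK1 with atRAL had 107 CPM with EV and 146 without EV at 6 h, against 42.7 and 33.7 at 1 h (1.71 ± 0.21, 3.28-fold, edgeR adjusted p = 0.0059). Without atRAL it had 76.7 CPM with EV and 81.7 in the control at 6 h, against 41.5 and 33.4 at 1 h, so all 4 libraries of 6 h stood above all 4 of 1 h. That second change was not called by edgeR (1.09 ± 0.21, adjusted p = 0.13) and was by DESeq2 (adjusted p = 0.000026). CLK4, the closest relative of CLK1 (chromosome 5, 178602664 to 178630615, minus strand), had 15.3 to 19.2 CPM in the 4 libraries of 6 h, against 5.12 to 6.68 in those of 1 h. Its change was 1.57 ± 0.15 with atRAL (2.97-fold, edgeR adjusted p = 0.0017) and 1.5 ± 0.15 without (2.84-fold, edgeR adjusted p = 0.021).

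RBM14 behaved otherwise: without atRAL it had 129 CPM with EV and 110 in the control at 6 h, against 49.7 and 54.2 at 1 h (1.20 ± 0.11, 2.3-fold, edgeR adjusted p = 0.021). With atRAL it had 64 CPM with EV and 61.6 without EV at 6 h, against 52.7 and 48.5 at 1 h, which was not called (0.31 ± 0.11, edgeR adjusted p = 0.09). The calls of CLK4 and RBM14 without atRAL were both lost without any 1 of the 4 libraries without atRAL (adjusted p up to 0.75). RBM15 without atRAL had 9.18 CPM with EV and 8.9 in the control at 6 h, against 17.1 and 15.3 at 1 h (-0.84 ± 0.18, edgeR adjusted p = 0.13, not called). DESeq2 called it (adjusted p = 0.0085), as did edgeR without any 1 of the 4 libraries with atRAL (adjusted p = 0.0032 to 0.0076).

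**Figure D4:**
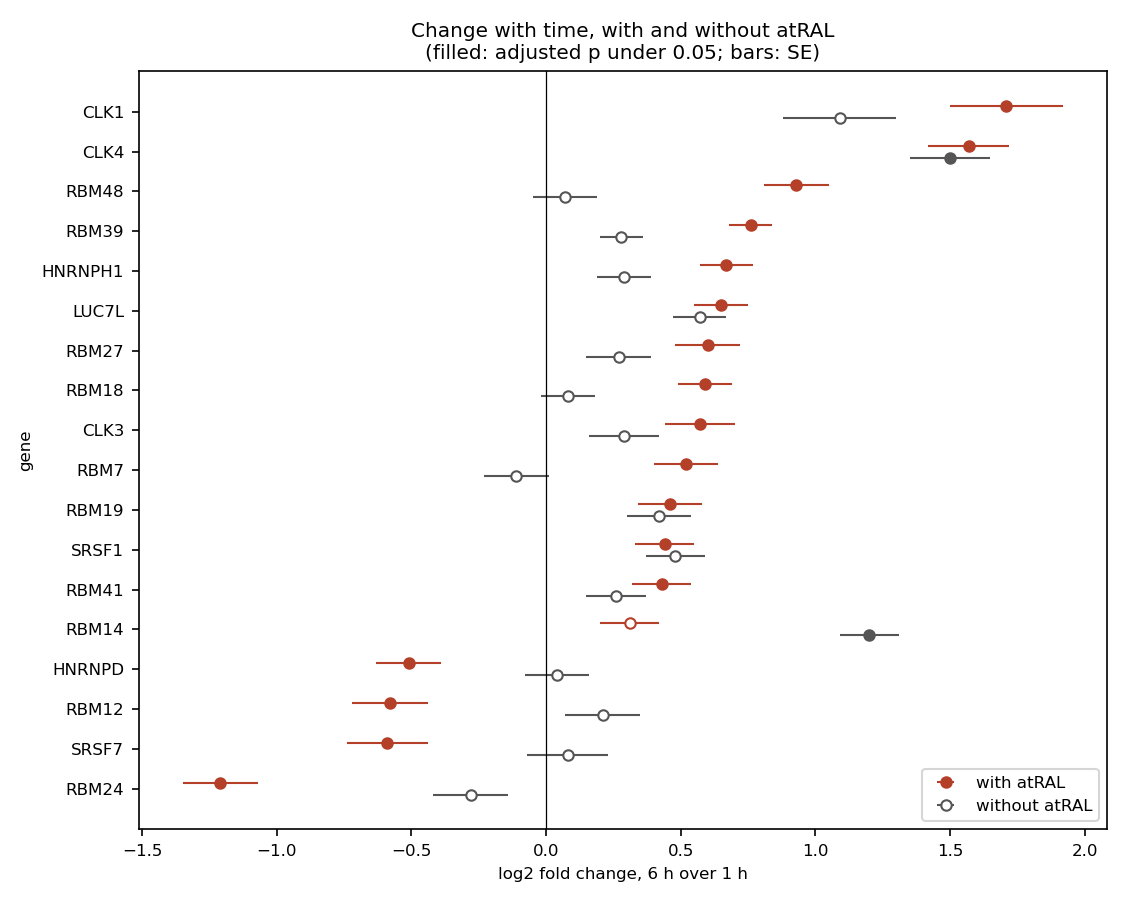
Log2 fold change of 6 h over 1 h with atRAL and without it, for the 18 genes called in either, with bars of 1 SE; filled points passed edgeR's test at an adjusted p under 0.05. CLK4 moved alike in both (1.57 and 1.5), RBM14 moved to 1.20 without atRAL and 0.31 with it, and RBM24 to -1.21 with atRAL and -0.28 without.

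With atRAL the other genes higher at 6 h were RBM48 (0.93 ± 0.12, edgeR adjusted p = 0.0047), RBM39 (0.76 ± 0.08, edgeR adjusted p = 0.0028), HNRNPH1 (0.67 ± 0.10, edgeR adjusted p = 0.006), LUC7L (0.65 ± 0.10, edgeR adjusted p = 0.0082), RBM27 (0.60), RBM18 (0.59), CLK3 (0.57), RBM7 (0.52), RBM19 (0.46), SRSF1 (0.44) and RBM41 (0.43). Lower at 6 h were RBM24 (-1.21 ± 0.14, edgeR adjusted p = 0.0032), SRSF7 (-0.59), RBM12 (-0.58) and HNRNPD (-0.51). SRSF1, the SR protein that binds GA-rich enhancers, had 334 CPM with atRAL plus EV and 275 with atRAL alone at 6 h, against 220 and 228 at 1 h. It had 334 CPM with EV alone and 316 in the control at 6 h, against 231 and 235 at 1 h. Another gene on the same strand shares 56.6% of the exon bases of SRSF1. LUC7L without atRAL had 46.6 CPM with EV alone and 42.2 in the control at 6 h, against 30.1 and 29.8 at 1 h. That change of 0.57 was not called by edgeR and was by DESeq2 (adjusted p = 0.004). A call with atRAL does not set the change against that without it. Of the 17 calls, 8 held in every fit that left out 1 library and in all other alternatives: CLK1, CLK4, HNRNPH1, LUC7L, RBM18, RBM24, RBM39 and RBM48. The rest were lost without 1 library, RBM27 without either atRAL plus EV library (adjusted p up to 0.054) and RBM41 without any of the 8 (up to 0.11). CLK3 was lost without atRAL at either time, or control or EV at 6 h (up to 0.1), SRSF7, RBM12, HNRNPD and RBM7 without atRAL, control or EV at either time (up to 0.17), and SRSF1 and RBM19 without atRAL plus EV, control or EV at either time (up to 0.23).

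Promoters are printed for the 2 kinases that changed most with time and for RBM14 and RBM12. These 2 were among the genes with the lowest log2 fold changes for atRAL at 6 h. Each is the 250 bases before the RefSeq start (GRCh38.p14), 5′ to 3′ on the gene's strand. The gene spans given above follow GENCODE v29, which places the starts elsewhere. The CLK4 stretch lies inside its GENCODE span, and those of CLK1, RBM14 and RBM12 overlap theirs. Distances below count from the RefSeq start. Capitals mark 4 motifs on either strand: the CCAAT box (CCAAT), the core of the cAMP response element (TGACG), the E-box (CACGTG) and the ETS core (CCGGAAG).
CLK1, chr2:200864659-200864908, minus strand: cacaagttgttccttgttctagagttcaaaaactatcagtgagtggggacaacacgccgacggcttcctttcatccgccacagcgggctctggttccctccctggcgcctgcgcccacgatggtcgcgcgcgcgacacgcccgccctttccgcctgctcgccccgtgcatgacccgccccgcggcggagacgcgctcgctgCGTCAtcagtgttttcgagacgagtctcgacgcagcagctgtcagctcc
CLK4, chr5:178627051-178627300, minus strand: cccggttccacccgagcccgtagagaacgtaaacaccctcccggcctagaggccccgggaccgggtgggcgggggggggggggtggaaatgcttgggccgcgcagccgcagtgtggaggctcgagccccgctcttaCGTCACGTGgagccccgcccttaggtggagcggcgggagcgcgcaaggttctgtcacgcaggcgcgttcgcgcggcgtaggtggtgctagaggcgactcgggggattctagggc
RBM14, chr11:66616380-66616629, plus strand: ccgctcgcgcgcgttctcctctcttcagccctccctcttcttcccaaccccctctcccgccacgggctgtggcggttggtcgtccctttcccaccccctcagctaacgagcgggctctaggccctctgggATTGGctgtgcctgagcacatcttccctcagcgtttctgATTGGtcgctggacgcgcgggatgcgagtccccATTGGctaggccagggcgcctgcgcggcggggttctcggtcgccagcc
RBM12, chr20:35664901-35665150, minus strand: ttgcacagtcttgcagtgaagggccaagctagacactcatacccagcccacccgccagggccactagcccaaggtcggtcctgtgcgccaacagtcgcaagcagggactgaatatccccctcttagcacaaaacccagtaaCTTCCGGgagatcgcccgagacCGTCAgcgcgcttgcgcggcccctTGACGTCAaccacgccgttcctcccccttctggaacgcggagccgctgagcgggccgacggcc

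CLK1 held 1 TGACG match, 49 bases before the start, and CLK4 held 1 at 114, overlapping a CACGTG match at 111. RBM14 held CCAAT 3 times, at 120, 81 and 48 bases before the start. RBM12 held TGACG at 87, 63 and 60, of which the last 2 overlap as the palindrome TGACGTCA, and CCGGAAG at 109. Promoters of 69 of the 76 genes were matched by gene identifier. CCAAT stood in 50.7% of them, against 34.6% of 12367 promoters of tested genes, TGACG in 36.2%, against 29%, CACGTG in 15.9%, against 8.72%, and CCGGAAG in 18.8%, against 15%. The full TGACGTCA stood in 4.35%, against 2.73%, the heat shock element GAANNTTC in 7.25%, against 4.13%, and TGATGNAA, the ATF4 composite element, in 0%, against 1.57%. The GC box GGGCGG stood in 59.4%, against 64.2%, the AP-1 site TGANTCA in 2.9%, against 4.41%, and the TATA box TATAAA in 10.1%, against 5.88%. These are matches of letters, not binding sites.

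Annotated isoforms show how many of these genes can make transcripts that are not translated in full. In GENCODE v29, 63.2% of the 76 genes have a transcript marked for nonsense-mediated decay, against 42.4% of 13027 protein-coding genes tested, and all 13 SR proteins do. A retained-intron transcript is annotated for 64.5%, against 56.7%. CLK1 has 2 decay and 8 retained-intron transcripts of 15, CLK4 has 3 and 7 of 15, and SRSF7 has 6 and 2 of 12. RBM12, RBM14, RBM15, RBM24 and RBM48 have 0 of either. The 76 genes have a median of 10 annotated transcripts, against 7 for all.

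EV were compared with no EV at each time, 2 libraries against 2. At 6 h none of the 76 genes was called by edgeR (1.7% of all genes were), although 18 had an unadjusted p under 0.05 (23.7%, against 18.6% of all genes), and limma-voom called 0 and DESeq2 3 (4.15% of all genes). Those 3 were SRSF7 (0.45 ± 0.10), RBM12 (0.42 ± 0.09) and HNRNPAB (0.33 ± 0.08), with edgeR adjusted p of 0.065, 0.068 and 0.084 and DESeq2 adjusted p of 0.0072, 0.0075 and 0.022. The log2 difference was above 0 for 51 of the 76 genes and for all 13 SR proteins, against 8338 of 17044 genes in all. Most of these values did not pass a test. The lists of other splicing genes described below mostly ran alike. Above 0 were 35 of 44 core spliceosome genes, 18 of 23 SR-related cofactors, 13 of 16 nonsense-mediated decay genes and 19 of 28 other regulators. Among other splicing kinases and phosphatases there were 8 of 17. CLK1 stood at -0.27 ± 0.10 (edgeR adjusted p = 0.18).

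The count for EV depended on which pair of libraries carried it. Without the EV or without the control library of 6 h, the 6 h value rests on atRAL plus EV over atRAL alone, 1 library each that is assumed to vary like those of 1 h. In either fit edgeR called 8 of the 76 genes higher with EV and 1 lower, against 10.2% of all genes without the EV library and 10.1% without the control, so the share of the 76 genes is near that of all genes. The higher ones were SRSF7 (0.61, adjusted p = 0.0041), RBM12 (0.59, adjusted p = 0.0032), HNRNPR (0.38), HNRNPAB (0.37), SRPK1 (0.35), SRSF10 (0.35), HNRNPD (0.34) and HNRNPA3 (0.34), and the lower one was CLK1 (-0.45, adjusted p = 0.013). Without the atRAL plus EV or without the atRAL library of 6 h, edgeR called 0.

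SRSF7 had 78.8 CPM with atRAL plus EV, against 51.7 with atRAL alone, and 115 with EV alone, against 94.5 in the control. RBM12 had 96.2 CPM with atRAL plus EV, against 63.9 with atRAL alone, and 160 with EV alone, against 134 in the control. Both genes were higher with EV in each pair, and with EV added to atRAL both stayed below the control. RBM48 and RBM14 barely differed between atRAL plus EV and atRAL alone, with ratios of 1 and 1.04, and CLK1 had a ratio of 0.732. Past 2-fold between single libraries were 0 of the genes compared for atRAL plus EV over atRAL alone at 6 h (2.91% of all genes), 0 for atRAL plus EV over the control (7.09%) and 0 for EV over the control (1.06%). At 1 h the same rule picked 0 of these genes for atRAL over the control (0.324% of all genes), atRAL plus EV over the control (0.848%), atRAL plus EV over atRAL alone (0.707%) and EV over the control (0.756%).

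The effect of EV with atRAL minus that without it, taken over 1 h and 6 h together, was called for 0 of the 76 genes by edgeR (0% of all genes), 0 had an unadjusted p under 0.05 (1.14% of all genes), and DESeq2 and limma-voom called 0. For SRSF7 this difference was 0.07 ± 0.21, for RBM12 0.12 ± 0.20 and for CLK1 -0.17 ± 0.29. The 2 times differed within these values. At 6 h the log2 ratio of SRSF7 was 0.61 for atRAL plus EV over atRAL alone and 0.28 for EV over the control, and at 1 h -0.01 and 0.18. For RBM12 these ratios were 0.59 and 0.26 at 6 h and 0 and 0.1 at 1 h, and for CLK1 -0.45 and -0.09 at 6 h and 0.34 and 0.31 at 1 h. The difference at 6 h alone was not tested. At 1 h edgeR, DESeq2 and limma-voom called 0 for EV (0.205% of all genes by edgeR), and 3 genes had an unadjusted p under 0.05 (3.9%, against 4.52% of all genes): CLK1 (0.33 ± 0.10), CLK2 (-0.21 ± 0.08) and SRSF5 (0.20). CLK1 thus had opposite signs at the 2 times, higher with EV at 1 h and lower at 6 h, with neither value past the adjusted threshold and the difference not tested.

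Other splicing genes, in lists chosen by function, gave a frame for these counts at 6 h with atRAL. Of all genes tested, 15.9% rose and 14.2% fell, the shares to set beside each list. The lists are short, and none was tested as a set. Of 44 core spliceosome genes 1 rose and 12 fell, with a median of -0.15. PLRG1, a subunit of the PRP19 complex, rose (0.67 ± 0.07, edgeR adjusted p = 0.00066), and PRPF4 (-0.48), SF3B4 (-0.36) and SNRPD1 (-0.36) fell. Of 23 SR-related cofactors 2 rose and 1 fell: CCNL1, a cyclin of splicing kinases (0.57 ± 0.08, edgeR adjusted p = 0.0017), RSRC2 (0.34) and SRRM1 (-0.60 ± 0.08, edgeR adjusted p = 0.0016). Of 17 other kinases and phosphatases that act on splicing factors 5 rose and 2 fell, among them DYRK3, which dissolves nuclear speckles (1.30 ± 0.13, edgeR adjusted p = 0.00078), and PIM2 (-1.16 ± 0.17, edgeR adjusted p = 0.0026).

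Of 28 other splicing regulators 4 rose, among them MBNL2 (1.33 ± 0.10, edgeR adjusted p = 0.00014), PCBP2 (0.40) and CELF1 (0.37), and 2 fell, among them PSPC1, a paraspeckle partner (-0.48). Of 16 genes of nonsense-mediated decay 4 rose, among them the kinase SMG1 (0.59 ± 0.07, edgeR adjusted p = 0.00098) and SMG5 (0.41), and 2 fell: UPF1, the helicase of the pathway (-0.45 ± 0.08, edgeR adjusted p = 0.0042), and EIF4A3 of the exon junction complex (-0.51 ± 0.08, edgeR adjusted p = 0.0024). The other medians were 0.02 for SR-related cofactors, -0.02 for the kinases and phosphatases, -0.03 for the other regulators and -0.01 for nonsense-mediated decay, against -0.01 for all genes.

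Genes whose pattern over the 8 libraries was most like that of CLK1 were ranked by Pearson r of log2 CPM. Among 2649 other tested genes with a range of at least 1 log2 unit, the 10 most alike were GPATCH1 (Pearson r = 0.998), DNAJB9 (0.985), C2orf42 (0.984), HSPH1 (0.982), NAPB (0.976), KCNH1 (0.975), CRISPLD2 (0.975), ZNF322 (0.973), its pseudogene ZNF322P1 (0.972) and ITPKC (0.972). HSPH1, a heat shock protein, had 232 CPM with atRAL only and 186 with atRAL plus EV at 6 h, against 158 with EV alone and 144 in the control. CLK4 ranked 63 (r = 0.926). These are descriptions over 8 libraries that share time and treatment, with no test.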

How the data were processed

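RPE-1 RNA was extracted with TRIzol, and libraries came from a stranded TruSeq kit for mRNA, per the labels' protocols. The authors deposited 1 table of 46427 genes with raw read counts per gene and FPKM, per the file headers. A further 8 columns of TPM were not used. Per the submitters' processing notes, HISAT2 2.1.0, StringTie 2.1.3b and GRCh38 took part in roles not stated. How reads were assigned to genes, by which annotation, filter or strand, is not given in the sources used here.

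Counts were filtered with filterByExpr (minimum count 10; 17044 genes kept, 29383 left out), scaled by TMM and tested with edgeR 4.0.16 (R 4.3.3; quasi-likelihood F, robust, two-sided), with Benjamini-Hochberg adjustment over all 17044 genes and a call at an adjusted p under 0.05. Effects of atRAL and EV within each time came from a model with 6 coefficients (2 residual degrees of freedom, biological coefficient of variation 9.66%), whose spread includes any interaction between the agents at a given time. Effects of time and the EV difference came from another, with 4 means for time by atRAL and an EV term for each atRAL state (2 residual degrees, 13.9%), whose spread includes any change of the EV effect between times. Ratios of 2 libraries used a prior count of 2, at least 100 counts in one of them, and a 2-fold limit. Alternatives were DESeq2 1.42.0, limma 3.58.1 (voom, and log2 of FPKM plus 1 or plus 0.1), other scalings, filters and models, and leaving out each library. The fits without 1 library are not independent checks of an effect of atRAL, EV or time. Leaving out a library outside the comparison keeps nearly the same estimate. Leaving out a library inside it leaves 1 library against 1.

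Named genes were all those called where at most 20 were, otherwise the 10 highest and the 10 lowest, with the kinases, TRA2A, TRA2B, LUC7-like genes and the most abundant gene of each family; for other lists up to 4; RBM4, RBM17, RBM26, RBM42, HNRNPK and the smaller hnRNP calls were added after their values were seen. The genes, lists and tests were chosen with earlier results of these data known.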

Additional observations from a re-analysis of the deposited data

Results flagged for a closer look

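For 12 genes the atRAL effect at 6 h differed from that at 1 h by edgeR's test of the difference itself (adjusted p under 0.05, over all genes). The difference, in log2 units, was positive for RBM48 (0.86), RBM15 (0.67), CLK1 (0.63), RBM7 (0.63), RBM18 (0.51), RBM33 (0.49) and RBM39 (0.47). It was negative for RBM24 (-0.92), RBM14 (-0.89), RBM12 (-0.79), SRSF7 (-0.66) and HNRNPD (-0.54). Leaving out any one of the 1 h libraries ended each of these calls, with adjusted p up to 0.35 for RBM39. Those of RBM7, RBM15, RBM18, RBM33 and RBM39 were also lost without the atRAL or the control library of 6 h. The cause was not tested.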

How the results depend on the processing

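No paired analysis was possible because every condition has 1 library and the labels give no replicate numbers shared between groups. Over the combinations of a called gene and an alternative, the call held in 824 and was lost in 304, and the direction was reversed in 0. For atRAL at 6 h, 11 genes rose and 19 fell. With log2(FPKM + 1) 7 rose, 12 fell with no filter on low counts and 12 with the libraries of that time alone, and leaving out 1 library gave 6 to 13 up and 10 to 17 down. For the difference between the atRAL effects, 7 were positive and 5 negative. Positive calls were 1 each with no filter, log2(FPKM + 1), log2(FPKM + 0.1) and no EV term, negative ones 2 each with no filter, log2(FPKM + 1) and no EV term, and leaving out 1 library gave 0 to 9 and 0 to 8.

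For EV at 6 h the calls of 0 became 2 up with a minimum count of 50 and 3 up with DESeq2, and 0 to 8 up and 0 to 1 down without 1 library. For time without atRAL, 2 up became 0 with no filter or log2(FPKM + 1), 9 with DESeq2 and 4 with no EV term, 0 to 11 without 1 library; 0 down became 2 with DESeq2 and 0 to 2 without 1 library. For time with atRAL, 13 up became 8 with no filter and 8 to 13 without 1 library, and 4 down became 1 with no filter and 1 to 4 without 1 library. The cause was not tested. A single library per condition and 2 residual degrees of freedom limit every test.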
